A study of Mus musculus with 2 samples.

Results

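Antioxidant genes, targets of the stress regulator NRF2 and metallothionein genes were described in costal-cartilage-derived stem cells (CDSCs) before and after culture. The 10 genes, out of 21849 listed in the files, were chosen by name: Nqo1, Hmox1, Srxn1, Gclm, Gclc, Txnrd1, Slc7a11, Mt1, Mt2 and Sod2. All 10 had at least 10 CPM (counts scaled to a common library total) in at least 1 library. The primary CDSCs came from rib cartilage of newborn mice, either CD45.1 or ZsGreen on the C57BL/6J background, taken within a week of birth, and were digested with type II collagenase and sorted as CD45- CD51+. The cultured CDSCs had been expanded in MEM with fetal bovine serum and were sequenced at passages 2 to 3. Each condition was 1 single-cell library, and both carry bone marrow as the tissue in their labels while the study's methods describe rib cartilage.

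NRF2, encoded by Nfe2l2, is a transcription factor that KEAP1 holds back by marking it for degradation. When reactive electrophiles or oxidants modify KEAP1, NRF2 accumulates, pairs with small MAF proteins and binds antioxidant response elements in DNA, where the repressor BACH1 competes with it. Its targets make glutathione, keep thioredoxin and peroxiredoxins reduced, break down haem and reduce quinones. Metallothioneins are small proteins that bind zinc and copper, and their genes answer to the zinc sensor MTF1, to glucocorticoids and to oxidants. Sod2, which makes the mitochondrial superoxide dismutase, is best known as a target of NF-kappaB.

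After the cell filter, 11746 of 11896 primary barcodes and 5338 of 10798 cultured barcodes were kept. A kept cell had a median of 10026.5 UMIs (molecular tags that count captured transcripts once) in primary cells and of 56864.5 in cultured cells. Neither library had a replicate, so no test was possible, and each interval below is an exact 95% interval that covers counting error only. Chondrocyte markers summed to 89400 CPM in primary and 1036 CPM in cultured cells, with 0 of the 13 markers at a count of 0 in either. Haematopoietic markers, of cells that the CD45 sort should remove, summed to 10.7 CPM and 31.6 CPM. Mast cell markers, listed apart, summed to 8.95 CPM in primary and 0.173 CPM in cultured cells. ZsGreen, the donor reporter, had 60957 counts in primary and 0 in cultured cells. The primary library thus held cells of ZsGreen donors, while the cultured library showed no RNA of the reporter. A difference between donors therefore cannot be told apart from culture. The cell barcodes found in both libraries numbered 32.

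The stretches before the start sites of 4 of the genes are printed as a description of their letters. They belong to the paired metallothionein genes, the member with the widest range over primary clusters and the one matching another stress factor's element. No link between these letters and the levels was tested. RefSeq promoters (GRCm38.p6) were found for 8 of the 10 genes, and each window is the 240 bases that end 11 bases before the RefSeq start site. That site need not be the GENCODE gene start. Mt1 (chr8:94178839-94179078, + strand) and Mt2 (chr8:94172368-94172607, + strand) lie side by side on chromosome 8. Capitals mark the core of the metal response element, the letters TGCACNC or TGCGCNC on either strand, which MTF1 is known to bind.
Mt1: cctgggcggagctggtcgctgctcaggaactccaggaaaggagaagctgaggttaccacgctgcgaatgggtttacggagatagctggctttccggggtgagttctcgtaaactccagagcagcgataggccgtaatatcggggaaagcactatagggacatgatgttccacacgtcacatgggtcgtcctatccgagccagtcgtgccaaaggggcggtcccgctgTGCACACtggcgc
Mt2: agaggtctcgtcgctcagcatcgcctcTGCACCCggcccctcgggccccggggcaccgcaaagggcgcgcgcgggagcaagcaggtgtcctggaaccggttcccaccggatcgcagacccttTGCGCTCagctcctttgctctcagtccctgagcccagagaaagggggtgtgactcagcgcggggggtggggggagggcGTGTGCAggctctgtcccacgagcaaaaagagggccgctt
The Mt1 window held 1 match and the Mt2 window 3. The windows were not placed alike against the GENCODE M21 gene starts. That of Mt1 ended at 94179078 with the gene start at 94179082, and that of Mt2 at 94172607 with the gene start at 94172664. Matches outside the windows were not counted, so these numbers do not rank the 2 promoters. In all, 4 members held the core, with 2 matches in Gclm and 1 in Srxn1, while 20.4% of all 32851 RefSeq windows of that length held at least 1.

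The Srxn1 window (chr2:152105274-152105513, + strand) is shown with the 9-base consensus for NRF2 with a small MAF partner in capitals. The Slc7a11 window (chr3:50443624-50443863, - strand) is shown with the composite element of CHOP and ATF4, TGATGNAA on either strand, in capitals.
Srxn1: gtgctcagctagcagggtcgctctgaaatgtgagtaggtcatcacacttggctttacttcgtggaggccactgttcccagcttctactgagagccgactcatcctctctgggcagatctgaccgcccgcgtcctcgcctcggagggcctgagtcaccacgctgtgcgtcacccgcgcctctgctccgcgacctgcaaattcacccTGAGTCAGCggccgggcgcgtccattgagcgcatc
Slc7a11: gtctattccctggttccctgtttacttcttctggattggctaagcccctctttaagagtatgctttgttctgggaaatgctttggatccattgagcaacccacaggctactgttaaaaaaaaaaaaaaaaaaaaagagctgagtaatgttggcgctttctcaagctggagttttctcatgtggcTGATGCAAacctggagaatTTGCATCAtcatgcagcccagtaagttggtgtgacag
The consensus, TGACTCAGC or TGAGTCAGC, was in 2 members, Srxn1 and Mt2, and in 0.682% of all windows. It contains the AP-1 site TGACTCA on 1 strand, so every consensus match is also an AP-1 match, and AP-1 sites were in 4.35% of all windows. The looser core TGACNNNGC was in 3 members, Gclm, Mt2 and Txnrd1, against 9.67% of all windows, and its Mt2 match is the consensus itself. The composite element of CHOP and ATF4 was in 1 member, Slc7a11, with 2 matches, against 3.37% of all windows. None of these letters were found in the windows of Nqo1 and Sod2, and a match describes letters, not binding. The Sod2 window (chr17:13007589-13007828, + strand) lies inside the GENCODE gene, which starts at 13006846. The letters before that start were therefore not searched.

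The first question was whether the genes differed in level between primary and cultured CDSCs. All 10 were higher in the cultured library, and 6 of them at least 2-fold (Hmox1, Gclm, Gclc, Txnrd1, Slc7a11 and Mt2), against 27.2% of the 9115 genes that reached 10 CPM in a library. In the other direction 0 of 10 were at least 2-fold lower, against 12.5% of those genes. At 4-fold, 4 of 10 were higher, against 10.6%, and 0 of 10 lower, against 5.73%. Being higher by any amount held for 64.5% of the genes tested. The members' median log2 ratio, cultured over primary, was 1.35 and that of all genes tested was 0.37. With edgeR's TMM scaling, which moves the median of all genes tested to 0.16 and the shares at least 2-fold higher and lower to 21.9% and 15.5%, 6 of 10 were again at least 2-fold higher and all 10 higher, but only Txnrd1 (2.64) then passed 4-fold, with Hmox1 at 1.80, Gclm at 1.87 and Gclc at 1.93.

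**Figure D1:**
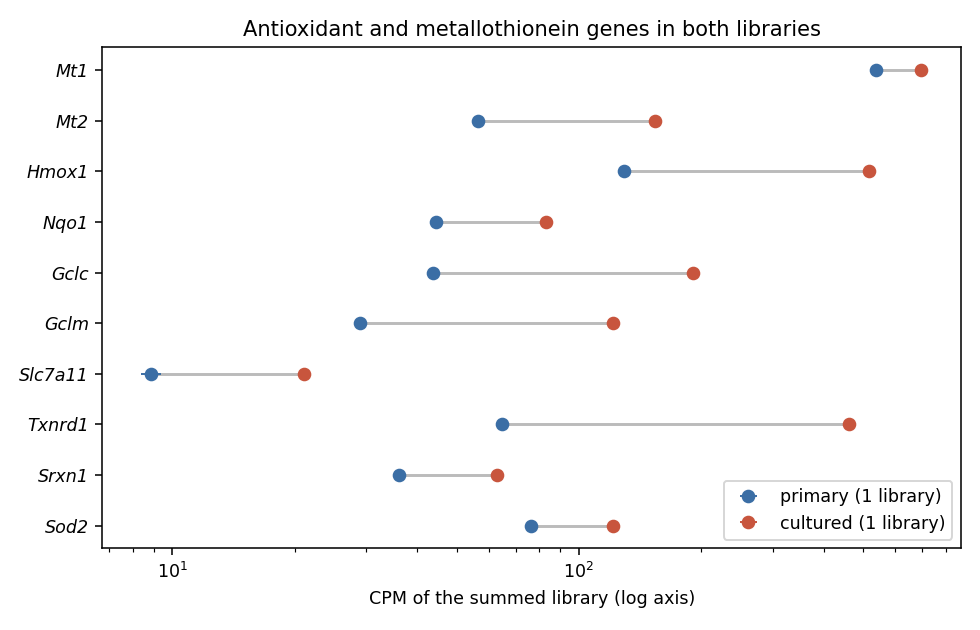
Level of each gene in CPM (log axis) in the primary (blue) and the cultured library (red), 1 library each, with exact Poisson 95% intervals that are mostly narrower than the points. Every red point lies to the right of its blue point, from Mt1 (537 and 696 CPM) to Txnrd1 (64.7 and 462 CPM).

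The genes of glutathione synthesis were among those with the larger ratios. Gclc, the catalytic subunit of glutamate-cysteine ligase, which carries out the first and limiting step, had 43.9 CPM in primary and 191 CPM in cultured cells, a log2 ratio of 2.12 (2.09 to 2.16). Gclm, its regulatory subunit, was at 29.0 and 121 CPM, a log2 ratio of 2.06 (2.02 to 2.11). The subunits kept nearly the same ratio of counts, with 1.51 Gclc UMIs for each Gclm UMI before and 1.58 after culture. Slc7a11, the cystine carrier that supplies the cysteine, was at 8.88 and 21.1 CPM, a log2 ratio of 1.249 (1.16 to 1.34). Its partner in the carrier, Slc3a2, went the other way, at 161 and 121 CPM, a log2 ratio of -0.41 (-0.44 to -0.39).

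Among the genes of thiol, peroxiredoxin and quinone reduction, Txnrd1 stood well above Srxn1 and Nqo1 in its ratio. Txnrd1, the cytosolic thioredoxin reductase, went from 64.7 CPM in primary to 462 CPM in cultured cells, a log2 ratio of 2.83 (2.80 to 2.87). Srxn1, sulfiredoxin, which restores overoxidised peroxiredoxins, was at 36.1 and 62.8 CPM, a log2 ratio of 0.80 (0.75 to 0.84). Nqo1, a quinone reductase often used as the reference target of NRF2, was at 44.4 and 83.1 CPM, a log2 ratio of 0.90 (0.86 to 0.94). The intervals of Srxn1 and Nqo1 end below 2-fold, whereas that of Txnrd1 lies above 4-fold.

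Hmox1, haem oxygenase 1, which breaks haem down to biliverdin, iron and carbon monoxide and is held down by BACH1, was at 129 CPM before and 516 CPM after culture. Its log2 ratio of 2.00 (1.98 to 2.02) sits at the 4-fold mark. Its constitutive relative Hmox2 was at 41.3 and 42.0 CPM, a log2 ratio of 0.02 (-0.02 to 0.07). Sod2 was at 76.2 and 121 CPM, a log2 ratio of 0.67 (0.64 to 0.70), and so remained under 2-fold.

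The metallothionein genes, which lie 6418 bases apart from start to start, differed from each other. Mt1 had the smallest ratio of the 10, at 537 and 696 CPM, a log2 ratio of 0.37 (0.36 to 0.39), about that of the median gene. Mt2 was at 56.5 and 154 CPM, a log2 ratio of 1.45 (1.41 to 1.48). Mt1 had 9.51 UMIs for each Mt2 UMI before culture and 4.52 after. Together they made up 57.9% of the UMIs of the 10 genes in primary and 34.999% in cultured cells, while the sum over the 10 went from 1026 to 2428 CPM. The genes are close paralogs, so how reads shared by both were counted could move this ratio.

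By position (GRCm38, GENCODE M21), all 10 are protein-coding genes, and 4 are on chromosome 8: Mt2 at chr8:94172664-94173568 (+), Mt1 at chr8:94179082-94180327 (+), Hmox1 at chr8:75093621-75100589 (+) and Nqo1 at chr8:107388225-107403206 (-). The others are Srxn1 at chr2:152105516-152111376 (+), Gclm at chr3:122245557-122270732 (+), Slc7a11 at chr3:49892526-50443614 (-), Gclc at chr9:77754535-77794485 (+), Txnrd1 at chr10:82833951-82897712 (+) and Sod2 at chr17:13006846-13040063 (+).

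A sum over a library does not separate more cells with a gene from more UMIs per cell. Depth per cell differed as well, so detection, the percentage of cells with any UMI of a gene, was compared after each cell had been thinned to 5000 UMIs, which left 10959 primary and 4543 cultured cells with median depths of 10432 and 66411 UMIs before thinning. Detection was higher in the cultured library for all 10 genes, as it was for 65.2% of all genes tested. Hmox1 was detected in 27.4% of primary and 83.6% of cultured cells, and Txnrd1 in 24.8% and 82.9%. These had the widest gaps of the 10. Gclc followed with 12.5% and 48.8%, Gclm with 13.1% and 40.1% and Mt2 with 18.4% and 43.7%. Mt1 was detected in most cells of both libraries, 68.6% and 83.4%. The gaps were narrower for Srxn1 (11.7% and 24.9%), Nqo1 (18.7% and 29.1%) and Sod2 (30.3% and 40.7%), and Slc7a11 was detected in few cells of either library, 3.23% and 9.003%.

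Without thinning, the shares were 34.4% and 73.3% for Nqo1, 37.9% and 91.7% for Hmox1, 19.96% and 74.7% for Srxn1, 26.2% and 82.4% for Gclm and 22.4% and 80.4% for Gclc. They were 42.7% and 90.9% for Txnrd1, 6.90% and 37.99% for Slc7a11, 77.9% and 92.9% for Mt1, 29.9% and 82.5% for Mt2 and 52.4% and 82.9% for Sod2. The gaps of Srxn1, Nqo1, Sod2, Slc7a11, Gclm, Gclc and Mt2 were thus wider without thinning. Those of Hmox1 and Txnrd1 were narrower, and that of Mt1 was nearly the same. Cells of every type use these genes, so no cell type gave a background share from free RNA. At equal depth a primary cell had UMIs of a median of 2 of the 10 genes and a cultured cell of 5. At least 5 of the genes were detected in 6.30% of primary and 58.8% of cultured cells, and none in 7.67% and 0.264%.

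**Figure D2:**
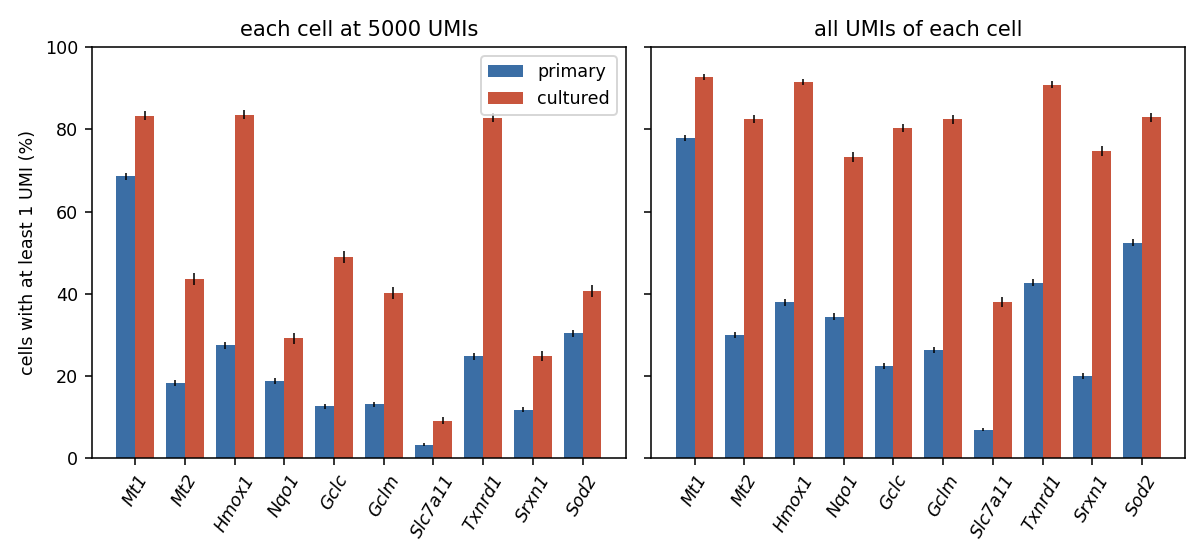
Percentage of cells with any UMI of each gene in the primary (blue) and cultured library (red), left with each cell thinned to 5000 UMIs and right with all UMIs, with exact binomial 95% intervals. At equal depth the red bars of Hmox1 and Txnrd1 reach 83.6% and 82.9% against 27.4% and 24.8%. The bars of Nqo1, Srxn1, Sod2, Slc7a11, Gclm, Gclc and Mt2 stand closer than on the right.

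The second question was how the UMIs of each gene were spread over the cells. At 5000 UMIs per cell, the variance over the mean (1 for Poisson counts) of Gclc was 4.28 in the primary library, where genes of like mean had a median of 1.06. Its UMIs came from few cells: 1373 of 10959 primary cells had any, 83 had 5 or more, and the most in 1 cell was 37. The tenth of cells with most Gclc held 88.6% of its UMIs. In the cultured library the variance over the mean of Gclc was 2.72 (like-mean median 1.20), with 161 of 4543 cells at 5 or more.

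Hmox1 was uneven in the primary library as well, with a variance over the mean of 3.73 (like-mean median 1.15) and 363 cells at 5 or more UMIs. In the cultured library it was 2.33 against a like-mean median of 1.78, although 918 cells had 5 or more. Srxn1 went from 2.06 in the primary (like-mean median 1.06), with 20 cells at 5 or more, to 1.13 and 0 cells in the cultured library. Srxn1 thus had its highest cells in the library where its mean was lower. Mt1 was uneven in both, at 4.41 (like-mean median 1.67) and 4.51 (1.92). Nqo1, Gclm, Txnrd1 and Sod2 lay between 1.07 and 1.20 in the primary library, close to the 1.05 to 1.09 of genes of like mean.

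**Figure D3:**
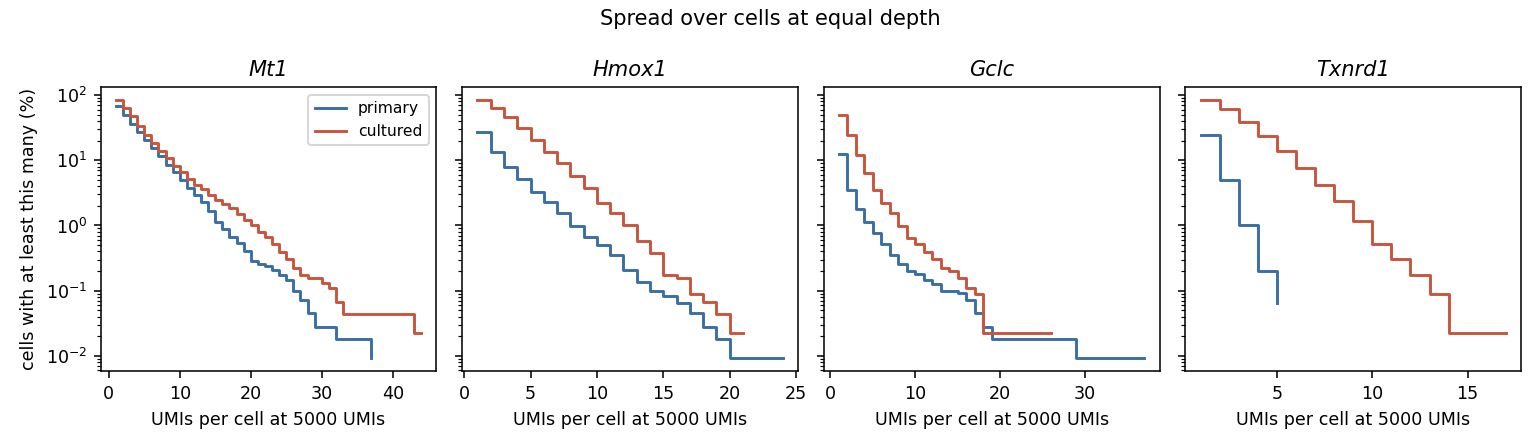
Share of cells (%, log axis) with at least the number of UMIs on the horizontal axis, for Mt1, Hmox1, Gclc and Txnrd1, in primary (blue) and cultured cells (red) thinned to 5000 UMIs. The primary Gclc line runs out to 37 UMIs in 1 cell although 12.5% of cells have any, while the primary Txnrd1 line ends at 5 UMIs.

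Clusters were formed within each library without the 10 genes and their pathway genes, and were numbered by size. In the primary library, 9 of 10 members differed at least 2-fold between the highest and lowest of 10 clusters, where 45.4% of genes did. It was 7 of 10 without cluster 9 (195 cells), where 40% of genes did, and 9 of 10 without cluster 5, where 43.3% did. In the cultured library it was 7 of 10 over the 7 clusters of at least 100 cells, where 60.8% of genes did. Without cultured cluster 3, whose cells had few UMIs, it was 4 of 10 (Hmox1, Gclc, Mt1 and Mt2), where 28.7% of genes did. The levels per cluster are a description, since cells of 1 library are not replicates.

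Primary cluster 5 (1140 cells), whose leading genes included Plet1, Slc22a4, Srxn1 and Ptgs2, the inducible prostaglandin synthase, had the highest level of 7 of the 10 genes. The share of all genes that were highest in this cluster was not counted. Srxn1 was at 136 CPM there (130 to 142) and at 36.1 CPM over the library. These 1140 cells held 39.3% of all Srxn1 UMIs and 17 of the 20 cells with 5 or more. Hmox1 was at 336 CPM in it, with 142 of the 363 cells at 5 or more. Mt1 was at 826, Mt2 at 112, Gclc at 96.1, Txnrd1 at 88.0 and Slc7a11 at 16.1 CPM. Nqo1 (36.3 CPM), Gclm (32.5 CPM) and Sod2 (62.9 CPM) were not highest there. The cluster's median depth of 10646 UMIs and mitochondrial share of 1.80% were near the library's 10026.5 UMIs and 1.84%. Without it the log2 ratio of Srxn1 between the libraries was 1.36, past 2-fold, so that 7 of 10 genes were at least 2-fold higher. That of Hmox1 was then 2.30 and that of Gclc 2.34.

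Primary cluster 9 (195 cells), led by Jazf1, Zbtb16 and Pknox2, had the lowest level of 7 genes: Srxn1 at 4.31 CPM (1.73 to 8.88), Hmox1 at 17.2, Slc7a11 at 1.85, Mt1 at 158, Mt2 at 10.5, Gclm at 19.7 and Txnrd1 at 36.3. Yet it had the highest Nqo1 of the primary clusters, 77.6 CPM (64.7 to 92.4). Nqo1 and Srxn1 were therefore at opposite ends in these cells. The counts are small, 7 UMIs for Srxn1 and 3 for Slc7a11, and the share of all genes that were lowest in this cluster was not counted. The cluster had the highest mitochondrial share of the primary clusters, 3.08%, and a median depth of 7521 UMIs, and their part in these levels was not tested. Cluster 10 (187 cells), led by the division genes Pbk, Cenpf and Esco2, had the highest Gclm at 48.9 CPM, and cluster 3, led by Aoc2 and the smooth muscle actin gene Acta2, the highest Sod2 at 92.5 CPM. Cluster 8 (289 cells), led by the mast cell genes Tpsb2, Cma1, Mcpt4 and Cpa3, was mixed. Its markers summed to 43671 CPM for chondrocytes, 27881 for mesenchymal fibroblasts, 545 for endothelium and 450 for mast cells. Without it, 6 of 10 genes were again at least 2-fold higher in the cultured library.

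In the cultured library, Gclc ranged over clusters from 45.1 to 380 CPM, or from 138 CPM without cluster 3. Without that cluster the range was 2.76-fold for Gclc, 3.11-fold for Mt1 and 3.23-fold for Mt2. Cluster 5 (471 cells), led by the collagenase gene Mmp13, Csmd1 and Sfrp4, had the highest Gclc at 380, Hmox1 at 745 and Sod2 at 180 CPM, and the lowest Nqo1 at 48.6 CPM. Gclm was at 111 CPM in it and highest in cluster 7 (185 cells; Ptn, Thy1), at 176 CPM, and in the dividing cluster 4 (796 cells; Aspm, Pbk, Mki67), at 163 CPM. Gclc was at 198 and 193 CPM in those, so the subunits of glutamate-cysteine ligase had their maxima in different clusters. Txnrd1 reached 559 CPM in cluster 1 (1408 cells; Bach2, Gpc3) and 377 CPM in cluster 2 (1289 cells; Angptl7, Klk8).

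The metallothionein genes had much the same order over the cultured clusters, unlike that of the glutathione genes. Mt1 was at 981 CPM in cluster 2 and at 315 CPM in cluster 7, and Mt2 at 208 and 71.3 CPM. Both were highest in cluster 3 (873 cells), at 1148 and 234 CPM, where 6 other genes were at their lowest, Gclc at 45.1 and Txnrd1 at 170 CPM. How many of all genes were at their highest or lowest in cluster 3 was not counted. Cluster 3 had a median of 1289 UMIs and 0.332% mitochondrial UMIs, far under the library's 56864.5 UMIs and 2.16%, and the part of that in these levels was not tested. Without cultured clusters 3 and 8, both of low depth, the log2 ratio of Mt1 between the libraries was 0.36 and 6 of 10 genes were at least 2-fold higher.

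**Figure D4:**
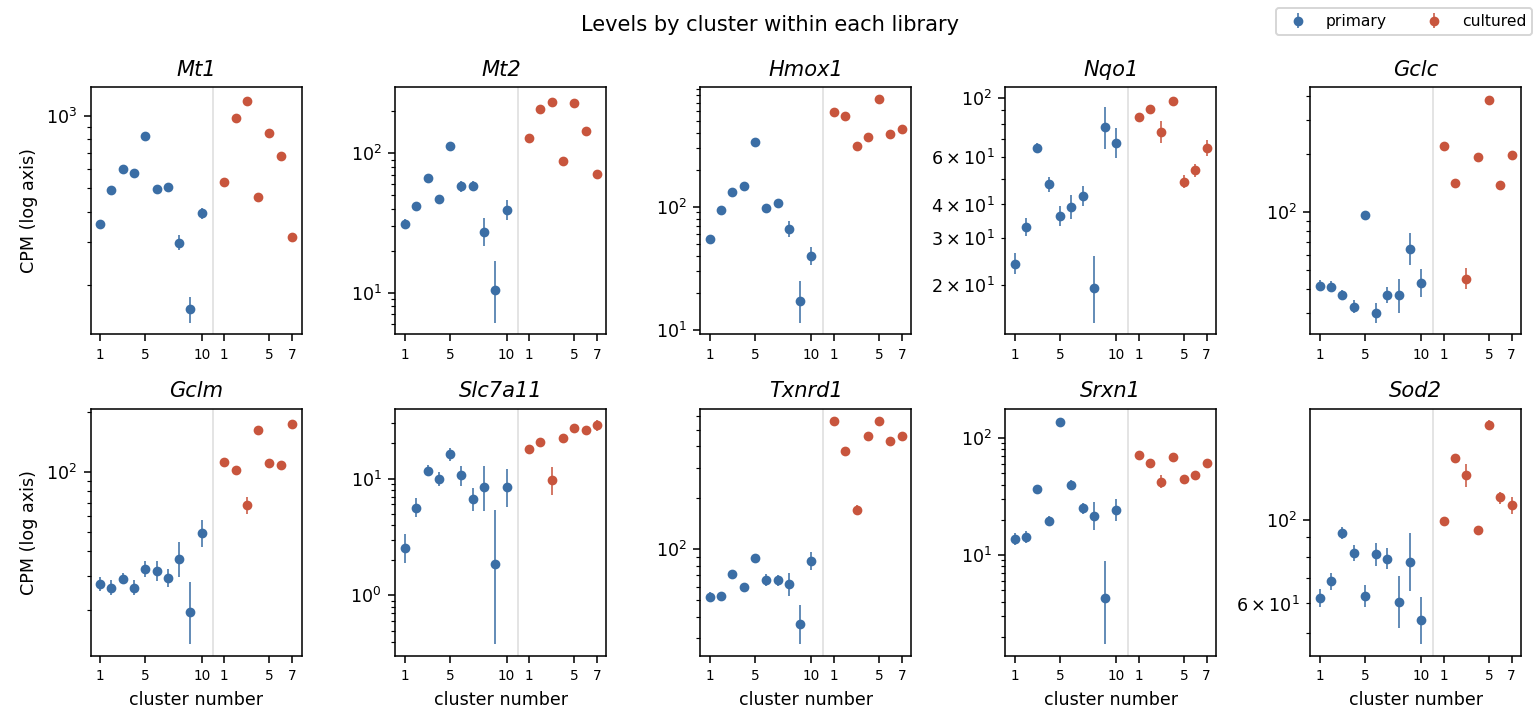
Level of each gene in CPM (log axis) in each cluster of at least 100 cells, with primary clusters 1 to 10 in blue and cultured clusters 1 to 7 in red; bars are exact Poisson 95% intervals. Blue cluster 5 stands out for Srxn1 (136 CPM) and Hmox1 (336 CPM), and red cluster 5 for Gclc (380 CPM).

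Between the libraries, every cultured cluster of at least 100 cells lay above every primary cluster for 3 of 10 genes, against 19.2% of all genes tested: Gclm (68.0 against 48.9 CPM at the nearest), Txnrd1 (170 against 88.0 CPM) and Sod2 (94.5 against 92.5 CPM). The intervals of the nearest Sod2 clusters overlapped (92.1 to 96.9 and 89.2 to 95.8 CPM), and with finer clusters, at resolution 0.8, the Sod2 levels overlapped as well and 2 genes remained. Without cultured cluster 3 the number was 6, with Hmox1, Gclc and Slc7a11 added, against 27.1% of all genes tested. For Srxn1, 136 CPM in primary cluster 5 exceeded the highest cultured cluster, 70.8 CPM. Nqo1, Mt1 and Mt2 overlapped as well.

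Over single cells at equal depth, the genes followed each other little. The Pearson correlation of log counts over cells had a median over the 45 pairs of 0.02 in primary and 0.04 in cultured cells. The exception was Mt1 with Mt2, at 0.37 over 10959 primary and 0.43 over 4543 cultured cells. Hmox1 and Srxn1 reached 0.21 and Hmox1 and Mt1 0.19 in the primary library. Such values are descriptions, since the cells share a library and most counts are 0.

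The genes most like each member over cells, by the same correlation, were sought among 5347 primary and 6222 cultured genes. For Mt1 they were Mt2, Rcan1 (0.25) and Errfi1 (0.22) in the primary library, and Fth1 (0.43), the ferritin heavy chain, Mt2 and Selenow (0.27) in the cultured library. For Hmox1 they were Rcan1 (0.30), Ifrd1 (0.25) and Rtn4 (0.23) in primary cells, and included Btg2 (0.22) and H3f3b (0.19) in cultured cells. For Gclm in cultured cells they were the division genes Top2a (0.16), Prc1 (0.15) and Smc2 (0.13), and for Txnrd1 Prkg1 (0.26), Svep1 (0.25) and Peak1 (0.24). Sod2 was nearest to Hp (0.21), haptoglobin, in cultured cells.

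The other genes of these pathways were counted from 11 lists. Of 129 genes, 117 had at least 10 CPM in either library, of which 52 were at least 2-fold higher in the cultured library, 20 at least 2-fold lower and 45 within 2-fold, with a median log2 ratio of 0.61. Of all genes tested, 27.2% were at least 2-fold higher and 12.5% lower, the shares to set beside each list below. With TMM scaling 46 were higher and 25 lower, where 21.9% and 15.5% of all genes tested were. At 4-fold the numbers were 32 and 9, against 10.6% and 5.73% of all genes tested.

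Among the regulators of NRF2, 4 of 10 were at least 2-fold higher and 2 lower, where 27.2% and 12.5% of all genes tested were. Their median log2 ratio was 0.004, under the 0.37 of all genes tested. Nfe2l2 itself was at 29.6 and 148 CPM, a log2 ratio of 2.32 (2.27 to 2.37), and its relative Nfe2l1 at 59.3 and 157 CPM, a log2 ratio of 1.40. Keap1 was at 57.1 and 50.5 CPM, a log2 ratio of -0.18 (-0.22 to -0.14). Bach1, the repressor, was at 27.5 and 55.0 CPM, a log2 ratio of 1.00 (0.95 to 1.05). The small MAF genes Maff and Mafk were lower, with log2 ratios of -2.64 and -1.80. These are levels of RNA, whereas NRF2 is known to be set largely by the stability of its protein.

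The list of other NRF2 targets had the highest median of the 11, a log2 ratio of 2.86, with 11 of 13 at least 2-fold higher and 0 lower. Cyp1b1, placed on this list but known as a cytochrome P450 that answers to the aryl hydrocarbon receptor, went from 0.204 to 274 CPM. Its log2 ratio of 10.39 rests on 28 counts in the primary library. Akr1b8 (7.20), Ptgr1 (5.21), Osgin1 (4.401) and Ephx1 (4.01) followed. Of the genes that supply NADPH, 4 of 7 were at least 2-fold higher and 0 lower, with G6pdx (3.07) and Pgd (2.80), both of the oxidative pentose phosphate pathway, at the top.

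Of the glutathione enzymes and transporters, 11 of 18 were at least 2-fold higher and 3 lower, with a median of 1.86. Gstp1 was at 4.46 and 172 CPM, a log2 ratio of 5.27, and the microsomal transferases Mgst1, Mgst2 and Mgst3 had 5.04, 4.39 and 3.84. Glutathione transferases are families of near copies, so reads shared between members are uncertain. Chac1, which breaks glutathione down, was at 200 and 18.6 CPM, a log2 ratio of -3.42. In the thioredoxin and peroxiredoxin list, 8 of 17 were at least 2-fold higher and 0 lower, among them Glrx (2.93), Prdx2 (1.96), Prdx5 (1.88), Txn1 (1.86) and Glrx5 (1.85).

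Beside Sod2, the superoxide and peroxide genes had like ratios for Sod1 (0.95) and Cat (0.94), whereas the secreted Sod3 went from 0.970 to 114 CPM, a log2 ratio of 6.88. Beside Hmox1, 5 of 9 haem and iron genes were at least 2-fold higher and 1 lower. The ferritin chains were Fth1 at 1708 and 8544 CPM (2.32) and Ftl1 at 1368 and 4477 CPM (1.71), while Tfrc, the transferrin receptor, had a log2 ratio of -2.10. Cp, ceruloplasmin, had 5.42 and Blvrb, a biliverdin reductase, 1.61.

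The zinc genes around the metallothioneins showed no common direction. Only 1 of 12 was at least 2-fold higher, Slc39a10 (1.97), and 2 were lower, Slc39a8 (-2.86) and Slc30a5 (-1.30), with a median of -0.14. Mtf1, the zinc sensor, was at 20.3 and 20.1 CPM, a log2 ratio of -0.01 (-0.07 to 0.05). Glucocorticoid targets, some of which share inducers with Mt1 and Mt2, were at least 2-fold lower for 7 of 9 genes and higher for 0, with a median of -1.37. Zbtb16 had a log2 ratio of -8.01 and Tsc22d3 -5.04. Mt1 and Mt2 were higher, unlike most of that list.

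ATF4, a factor of the amino acid response, is also known to drive Slc7a11, and its targets had 6 of 12 at least 2-fold lower and 3 higher, with a median of -1.06. Atf3 had 1189 CPM before and 23.0 CPM after culture (-5.69), Ddit3 had -3.16 and Atf4 itself -2.04, while Psat1, a serine synthesis enzyme, had 2.50. Atf3 and Ddit3 are stress-induced genes that cell dissociation is known to induce, and its part in the members' levels was not tested. The NF-kappaB targets had 4 of 11 at least 2-fold higher, the cytokine genes Cxcl5 (9.47), Il6 (5.17) and Ccl2 (4.98) and the adhesion gene Vcam1 (4.91), and 1 lower, Icam1 (-1.49). Of all genes tested, 27.2% were higher and 12.5% lower. Sod2, with 0.67, lay nearer to that list's median of 0.41 than to its highest genes.

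**Figure D5:**
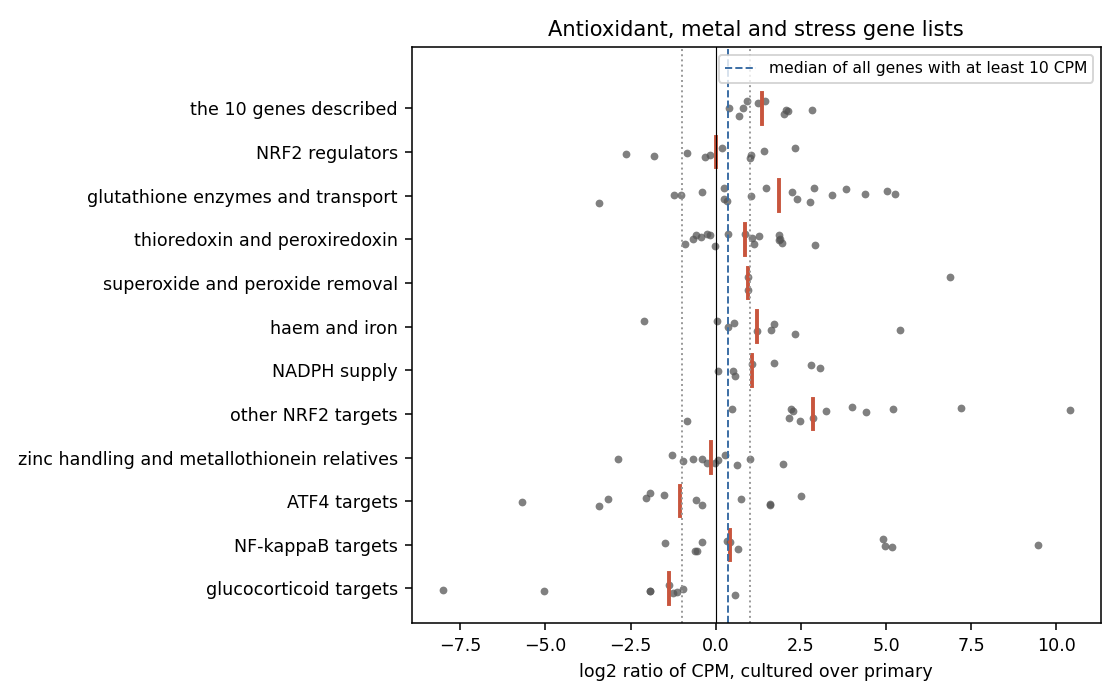
Log2 ratio of CPM, cultured over primary, of the 10 genes and of each pathway gene with at least 10 CPM in either library, with list medians as red bars, 2-fold as dotted lines and the median of all genes (0.37) as a dashed line. The other NRF2 targets have the rightmost median (2.86) and the glucocorticoid targets the leftmost (-1.37).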

How the data were processed

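Single-cell RNA sequencing (10x Genomics 3' v3.1 chemistry) had been performed on 1 library of primary and 1 library of cultured CDSCs, grouped here by their treatment labels. The authors made the deposited matrices of raw UMI counts per gene and barcode with Cell Ranger 7.0.0 against mm10/GRCm38. The annotation release was not given in the sources used here.

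Barcodes were dropped under 500 genes, under 1000 UMIs or over 10% mitochondrial UMIs, since the study's own limits were not given in the sources used here. Scrublet's automatic threshold marked 0 primary and 1 cultured cells and so had not worked. Doublets were kept in the main values, and an alternative left out the 1118 primary and 461 cultured cells of highest score. Counts were summed per library and scaled to CPM. The totals were 137148874 primary and 330129909 cultured UMIs, where a count of 3 is 0.0219 and 0.00909 CPM, so counting error was small. For ratios, counts under 3 were raised to 3. Intervals are exact Poisson, conditional or Clopper-Pearson (scipy 1.17.1). Clusters were made with Leiden at resolution 0.5 on 20 neighbours and 10 principal components (scanpy 1.11.5, leidenalg 0.10.2), and a gene led a cluster by its fold over the library's other cells with at least 50 CPM. The scripts were tested on simulated counts. Alternatives covered cell filters, doublets, scaling (edgeR 4.0.16 TMM), folds, thinning and cluster resolution.

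The members, the lists and the tests were chosen with earlier results of these data known. The genes named are the 10 members, 7 regulators and partners (Nfe2l2, Keap1, Bach1, Mtf1, Slc3a2, Sod1 and Cat), up to 5 genes per list with the largest ratios past 2-fold, and the 3 genes closest by correlation to each member detected in at least 20% of thinned cells. Hmox2, the motifs of the consensus, and the settings that leave out clusters were added after values or sequences were seen. Lower-count second rows of 2 listed symbols were not used. Some genes that these rules name, among the leading and the correlated genes, are not reported here.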

Additional observations from a re-analysis of the deposited data

Results flagged for a closer look

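Some of the genes also had UMIs above their level in kept cells in barcodes that the cell filter had left out. The 5339 cultured barcodes under 500 genes or 1000 UMIs had a median of 772 UMIs. Mt2 was at 260.4 CPM in them (245 to 276) against 154 CPM in kept cells, Mt1 at 742 CPM (716 to 768) against 696 CPM and Srxn1 at 74.3 CPM (66.3 to 83.0) against 62.8 CPM. Gclc, at 84.7 CPM against 191 CPM, was lower in them, as in the kept cluster 3 of low depth. Slc7a11 was lower as well, at 16.6 CPM (12.9 to 20.9) against 21.1 CPM.

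The 121 cultured barcodes over 10% mitochondrial UMIs, of median depth 12847 UMIs, split the genes evenly. Txnrd1 was at 774 CPM (736 to 813) against 462 CPM in kept cells, Gclc at 367 CPM (341 to 394) against 191 CPM, Gclm at 165 CPM (148 to 184) against 121 CPM, Nqo1 at 147 CPM (131 to 165) against 83.1 CPM and Slc7a11 at 37.6 CPM (29.7 to 47.0) against 21.1 CPM. The other 5 genes were below kept cells, with Mt1 at 113 CPM against 696 CPM, Mt2 at 51.1 against 154 CPM, Sod2 at 40.0 against 121 CPM, Hmox1 at 363 against 516 CPM and Srxn1 at 43.9 against 62.8 CPM. In the 75 primary barcodes over 10% mitochondrial UMIs, Slc7a11 was at 33.1 CPM (10.8 to 77.3) against 8.88 CPM, on 5 counts. Mt1 was lower in them, at 278 CPM (201 to 376) against 537 CPM on 42 counts. Hmox1 was lower too, at 66.2 CPM (31.8 to 122) against 129 CPM on 10 counts.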

How the results depend on the processing

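The number of members at least 2-fold higher in the cultured library was 6 under every planned cell filter, doublet and scaling setting, and 7 once primary cluster 5 was left out, a setting chosen after seeing the data. Hmox1, Gclm, Gclc, Txnrd1, Slc7a11 and Mt2 were past 2-fold in 12 of 12 settings, Srxn1 in 1 of 12 and Nqo1, Mt1 and Sod2 in 0 of 12. The log2 ratio of Mt1 ranged from 0.18 to 0.47 and that of Slc7a11 from 1.05 to 1.39. No member's ratio changed sign in these settings. With 4-fold in place of 2-fold, 32 pathway genes were higher and 9 lower, against 52 and 20. Without the minimum of 10 CPM they were 57 and 22. The number of members 2-fold apart over cultured clusters was 5 at resolution 0.3, 9 at 0.8 and 4 without cultured cluster 3, against 7, and the number with every cultured cluster above every primary cluster was 4, 2 and 6, against 3. No paired analysis was possible because each group had 1 library. Depth limited Slc7a11 and the smaller clusters most, and the spread between animals, donors and preparations could not be estimated.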

Other observations

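Cultured cluster 9 held 9 cells led by Dock2, Ccl12 and C1qc, genes of macrophages, and was left out of the cluster comparisons for its size. Hmox1 was at 1011 CPM in it (916 to 1114), Gclm at 417 CPM (356 to 485) and Nqo1 at 14.8 CPM (5.43 to 32.2). Hmox1 and Gclm were thus above, and Nqo1 below, the range of the 7 larger cultured clusters, on 410, 169 and 6 UMIs.

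The level of some genes differed between cells of low and of higher depth within a library. In the 787 primary cells under 5000 UMIs, Nqo1 was at 21.9 CPM against 44.9 CPM in deeper cells, Srxn1 at 19.1 against 36.4 CPM, Hmox1 at 74.8 against 130.02 CPM and Mt1 at 374 against 541 CPM. Gclc went the other way, at 67.8 against 43.4 CPM. In the 795 cultured cells under 5000 UMIs, Gclc was at 93.0 CPM against 192 CPM, whereas Hmox1 was at 560.4 against 516 CPM and Mt1 at 710.1 against 696 CPM.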
